A study of Homo sapiens with 6 samples.

Results

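Differences in gene expression between RT4, RT112 and SW780, which are 3 lines from human bladder cancer, were described before and after treatment with quisinostat. The members are the assembled gene loci with a mean of at least 2 FPKM over 6 libraries, which were 8485 of the 10066 loci measured. FPKM counts the sequenced fragments of a locus per kilobase of its transcript and relative to all fragments mapped in that sample. For each locus, the range was the highest minus the lowest of the 3 lines on the log2(FPKM + 1) scale, taken once over the DMSO libraries and once over the quisinostat libraries. A range of 1 thus means that the line with the highest level had about 2 times the (FPKM + 1) of the lowest. Just under the limit stood AZGP1 and CYCSP55 with means of 1.999 FPKM each, and just above it HOPX with 2.001 and RASSF5 with 2.005 FPKM.

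RT4 and RT112 cells carry an FGFR3-TACC3 fusion, and SW780 cells carry a fusion that the labels spell FGFR3-BAIBP2L1. Each line was kept for 2 days with DMSO or with quisinostat, at 50 nM for RT4, 10 nM for RT112 and 25 nM for SW780. The lines also grew in different media. There was 1 library for each line and treatment, so no difference given here has a replicate check and no test was made, and line, dose and medium cannot be told apart. Polyadenylated RNA was sequenced and the authors deposited FPKM, not read counts, so the depth behind a value is unknown. A label of the SW780 quisinostat sample reads SW781, and the sample was taken as SW780 from its title. Values for the 3 lines are always given in the order RT4, RT112, SW780.

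Quisinostat inhibits histone deacetylases, the enzymes that take acetyl groups off histones and other proteins. Acetylated histones mark open, transcribed chromatin, and inhibitors of these enzymes are known to raise the transcripts of many silent genes and to lower those of others. Cell lines from tumours of 1 organ differ in the genes they keep open, through differences in differentiation state, DNA methylation and gene dosage. Urothelial cells, which line the bladder, are known for uroplakins and for keratins that change from the basal to the luminal layer.

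All 10 urothelial and epithelial marker genes were present, with a summed level between 874 and 1724 FPKM in the 6 libraries. Among 15 markers of leukocytes, endothelium, fibroblasts and hepatocytes, 3 were among the names of the table, and their sum was between 1.16 and 135 FPKM. Nearly all of the higher value was LUM, which encodes the matrix proteoglycan lumican. It stood at 0, 135 and 8.18 FPKM in DMSO and at 3.57, 133 and 14.2 FPKM in quisinostat, so it was high in RT112 cells with either treatment. The level of a locus relative to the mean of the 6 libraries followed the GC content of its transcript. Across 7985 members with a GC value, Spearman's rho was 0.41, -0.13 and -0.09 in the DMSO libraries and -0.28, 0.35 and -0.30 in the quisinostat libraries. This trend turns around between RT4 and RT112 cells with treatment, its part in the results was not tested, and values after subtracting it are given beside the results it touches. An exact 0 or a value near 0 can be a failed estimate of the assembly. DNM1L, a GTPase of mitochondrial fission that cells in general use, stood at 0.000406 FPKM in RT4 cells in DMSO and at 9.36 FPKM in quisinostat. At least 1 exact 0 occurred in 230 members (2.71%). CA9, RHOBTB3, DNM1L, CFI, BEST1, LINC01088, TBC1D17, LXN and UPK2 are among the named genes whose span overlaps another coding gene on either strand in GENCODE 29, and whether strand was used to assign their reads is not given in the sources used here.

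The 3 lines stood slightly farther apart in quisinostat than in DMSO. The median range was 0.81 in DMSO and 0.86 in quisinostat, and the mean range 1.01 and 1.09. The range was narrower at 3820 loci (45.02%, 95% Wilson interval 44.0% to 46.1%, which covers counting error only and treats loci as independent) and wider at 4665 loci. At most loci the shift was small: 7460 loci (87.9%) changed their range by less than 1. It narrowed by at least 1 at 395 loci (4.66% of all members) and widened by at least 1 at 630 loci (7.42%). Without RT112 the direction turned: RT4 and SW780 cells alone were closer at 53.7% of loci, with 412 closer and 402 farther apart by at least 1. Loci that differed by at least 2 between the highest and lowest line numbered 756 in DMSO and 964 in quisinostat. The excess of widening was larger among loci with a low mean than among loci with a high mean. Among the 2176 loci with a mean of 2 to 5 FPKM, 129 narrowed and 255 widened by at least 1. Among the 1450 loci with a mean of at least 30 FPKM, 55 narrowed and 65 widened. The mean is taken over the same libraries that make the ranges. Loci raised in a single treated line can enter the low group because they widened, and loci high in a single DMSO library because they narrowed. This contrast thus follows in part from the filter on the mean, and a link of widening with level was not tested.

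**Figure D1:**
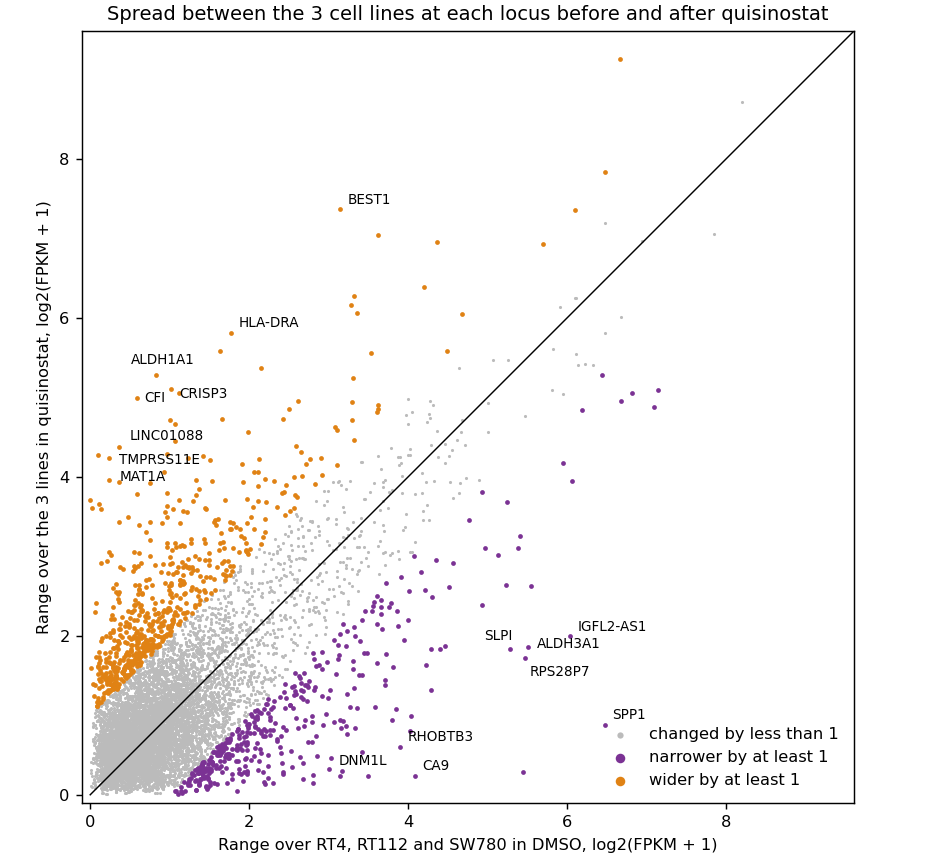
Range of log2(FPKM + 1) over the 3 lines at each of 8485 loci, in DMSO on the x axis and in quisinostat on the y axis. Points below the diagonal grew more alike. The 395 loci narrower by at least 1 are purple and the 630 wider by at least 1 are orange, and the labelled genes are the 8 with the largest narrowing and the 8 with the largest widening.

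Which pair of lines was compared decided the direction. RT112 and SW780 cells were the most alike in DMSO, with a median absolute difference of 0.41, and moved apart to 0.52. RT4 and RT112 cells went from 0.54 to 0.58. RT4 and SW780 cells drew closer, from 0.52 to 0.47, and were closer in quisinostat at 53.7% of loci, against 41.3% for RT112 and SW780 cells and 47.4% for RT4 and RT112 cells. RT4 was the line farthest from the middle one at 41.8% of loci in DMSO and at 34.1% in quisinostat, while RT112 went from 30.2% to 38.5% and SW780 was at 28.0% and 27.4%. Differences between lines were partly carried through treatment. Across loci, the difference between 2 lines in DMSO correlated with that in quisinostat at a Pearson's r of 0.71 for RT4 and SW780, 0.63 for RT112 and SW780 and 0.53 for RT4 and RT112 cells, as a description over 8485 loci that share libraries. At the 477 loci where the lines were at least 2 apart in DMSO and also in quisinostat, the order of the 3 lines was the same at 312 of them (65.4%).

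These pair differences moved with GC content. For RT4 minus RT112, rho with GC content was 0.37 in DMSO and -0.36 in quisinostat, for RT4 minus SW780 it was 0.36 and 0.01, and for RT112 minus SW780 it was -0.03 and 0.40. After the GC trend of each library was subtracted, all 3 pairs stood farther apart in quisinostat. The medians were then 0.46 and 0.51 for RT4 and RT112, 0.44 and 0.46 for RT4 and SW780, and 0.40 and 0.45 for RT112 and SW780 cells. The approach of RT4 and SW780 cells was thus not seen on that scale, and the count of loci wider by at least 1 was 414, against 584 for the same 7985 loci without the correction. The count narrower by at least 1 was 291, against 359 without it, so more loci still widened than narrowed.

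**Figure D2:**
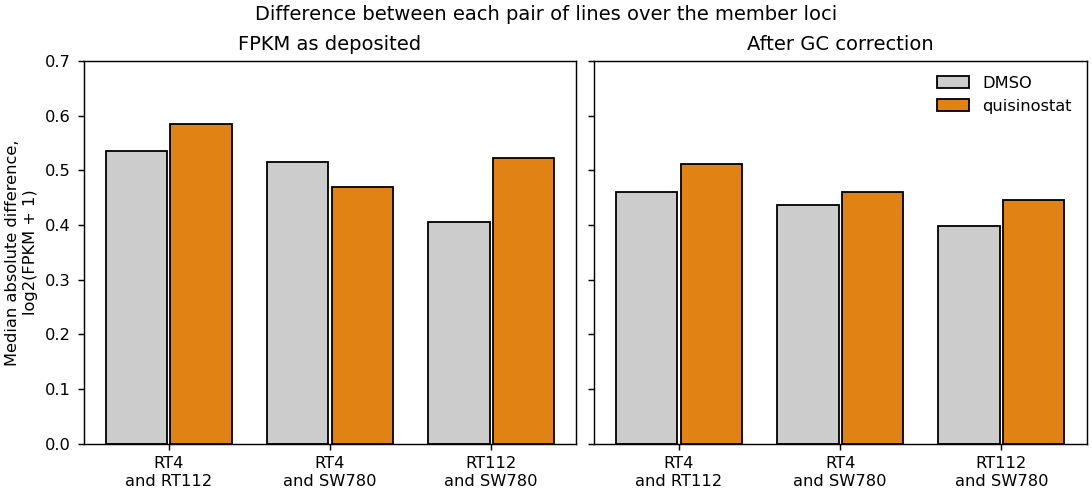
Median absolute difference in log2(FPKM + 1) for each pair of lines in DMSO (grey) and quisinostat (orange), for 8485 loci as deposited on the left and for 7985 loci after GC correction on the right. RT4 and SW780 went from 0.52 to 0.47 as deposited and from 0.44 to 0.46 after correction.

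At the loci where the lines grew more alike, RT4 cells moved most often. RT4 had the largest change of the 3 lines at 228 of the 395 narrower loci, rising at 126 and falling at 102. The same share over all members, or after the GC correction, is not given here. The count therefore cannot be said to be particular to these loci. SPP1 encodes osteopontin, a secreted glycoprotein of matrix and inflammation, and lies on chromosome 4 (87975650 to 87983426, plus strand, GRCh38). It stood at 0.0690, 48.8 and 93.7 FPKM in DMSO and at 45.5, 41.1 and 76.6 FPKM in quisinostat, so its range went from 6.47 to 0.88. IGFL2-AS1, a long noncoding RNA, did much the same, with 0.790, 53.8 and 117 FPKM before and 59.8, 37.6 and 153 FPKM after. SLPI, a secreted protease inhibitor of epithelia, was at 4.77, 222 and 20.7 FPKM and then at 55.5, 199.99 and 93.7 FPKM. RHOBTB3, a protein with BTB domains, was at 2.62, 52.9 and 39.3 FPKM and then at 40.9, 62.6 and 51.3 FPKM. In each of these 4 genes RT4 cells were lowest in DMSO and rose by over 3 on the log2 scale. DNM1L, described above, is also among the 8 largest.

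At other loci the high line came down. CA9, the hypoxia-inducible carbonic anhydrase, was at 0.462, 23.8 and 0.777 FPKM in DMSO and at 0.219, 0.245 and 0.0535 FPKM in quisinostat, a fall confined to RT112 cells among changes of at least 1. ALDH3A1, an aldehyde dehydrogenase, was at 25.7, 4.51 and 249 FPKM and then at 5.02, 5.90 and 20.9 FPKM, with falls in RT4 and SW780 cells. RPS28P7 is a pseudogene of a ribosomal protein gene and may share reads with its parent. It was at 71.9, 0.654 and 5.68 FPKM and then at 8.53, 1.89 and 2.198 FPKM.

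RT4 cells also moved most often at the loci that drew the lines apart, again with no share over all members to set beside it. Of the 630 wider loci, RT4 changed most at 388, rising at 197 and falling at 191. The transcripts of those that fell had a median GC content of 60.6% and of those that rose 45.7%, against 48.0% over all members. ALDH1A1, which oxidizes retinaldehyde to retinoic acid, was at 0.724, 0.0185 and 0.814 FPKM in DMSO and at 42.4, 0.116 and 3.10 FPKM in quisinostat. CFI, a protease of the complement system, was at 0.502, 0.0132 and 0 FPKM and then at 38.3, 0.237 and 0.405 FPKM. MAT1A, the liver-type enzyme of S-adenosylmethionine synthesis, was at 0.175, 0 and 0.0786 FPKM and then at 19.6, 0.0923 and 0.221 FPKM. LINC01088, a noncoding RNA, was at 0.317, 0.241 and 0.0284 FPKM and then at 20.4, 0.0335 and 0.124 FPKM. In these 4 genes all lines were under 1 FPKM in DMSO and the level in RT4 cells was over 10 times that of each other line in quisinostat. These 4 genes are members only through the RT4 quisinostat library, so this pattern follows in part from the filter.

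TMPRSS11E and CRISP3 rose in all 3 lines, but by unequal amounts. TMPRSS11E, a serine protease of epithelia, was between 0.206 and 0.289 FPKM in the DMSO libraries and at 79.3, 3.17 and 19.99 FPKM in quisinostat. CRISP3, a secreted cysteine-rich protein, was at 1.55, 0.267 and 0.677 FPKM and then at 181, 4.31 and 10.2 FPKM. HLA-DRA, the alpha chain of the class II molecule HLA-DR, was at 2.42, 0.0163 and 0 FPKM and then at 89.5, 0.616 and 6.66 FPKM. BEST1 was at 0.0253, 7.84 and 0 FPKM and then at 225, 6.59 and 0.372 FPKM. It overlaps FTH1, the ferritin heavy chain gene, which stood at 1354, 676 and 2292 FPKM and then at 3957, 391 and 947 FPKM, so reads of both genes may have been split between them. TMPRSS11E, CRISP3 and HLA-DRA are members only through their quisinostat libraries, so their widening too follows in part from the filter. Each of the 8 genes with the largest widening widened by over 3 after the GC correction as well.

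To describe which line-specific genes were kept, lost or gained, a locus was called high in a line when its log2(FPKM + 1) was at least 2 above both other lines. Such loci numbered 227 in DMSO and 289 in quisinostat. Of the 227, 122 (53.7%) were kept in the same line, which is 1.44% of all members, and 105 (1.24% of members) were lost. Another 167 (1.97% of members) were gained. These classes were chosen by the values they describe, so the gaps themselves are no test. Loci lost and gained mirror each other by construction, and 1.59 times as many were gained as lost. A line-high call passed between lines at 4 loci. RT4 kept 66 of 101 line-high loci, RT112 30 of 62 and SW780 26 of 64. RT4 gained 67, RT112 70 and SW780 30. A locus lost by a narrow margin may still differ, and 56 of the 105 lost loci ended with a gap under 1, while 107 of the 167 gained loci had a gap under 1 in DMSO. An exact 0 in a library occurred in 65 of the 122 kept loci, 16 of the 105 lost and 37 of the 167 gained.

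RT112 reached its count from the other side than RT4 and SW780. At 54 of the 67 loci gained by RT4, RT4 itself moved more than the nearest other line, and it rose by at least 1 at 51. For SW780 this held at 26 of 30, with a rise of at least 1 at 23. At 47 of the 70 loci gained by RT112, the other lines moved more, and their nearest level fell by at least 1 at 53. The loci gained by RT112 had a median transcript GC content of 62.0%. After the GC correction RT112 gained 19 loci rather than 69 among loci with a GC value, and 16 of the 69 were still called. For RT4 the correction gave 70 rather than 65, with 59 shared, and for SW780 26 rather than 23, with 19 shared. Losses after correction were 17 for RT4, 34 for RT112 and 30 for SW780. More loci were thus gained than lost only in RT4 cells after correction, while as deposited this held in RT4 (67 against 35) and RT112 cells (70 against 32) and not in SW780 cells (30 against 38). Kept loci moved little: 99 of the 110 with a GC value were still kept.

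**Figure D3:**
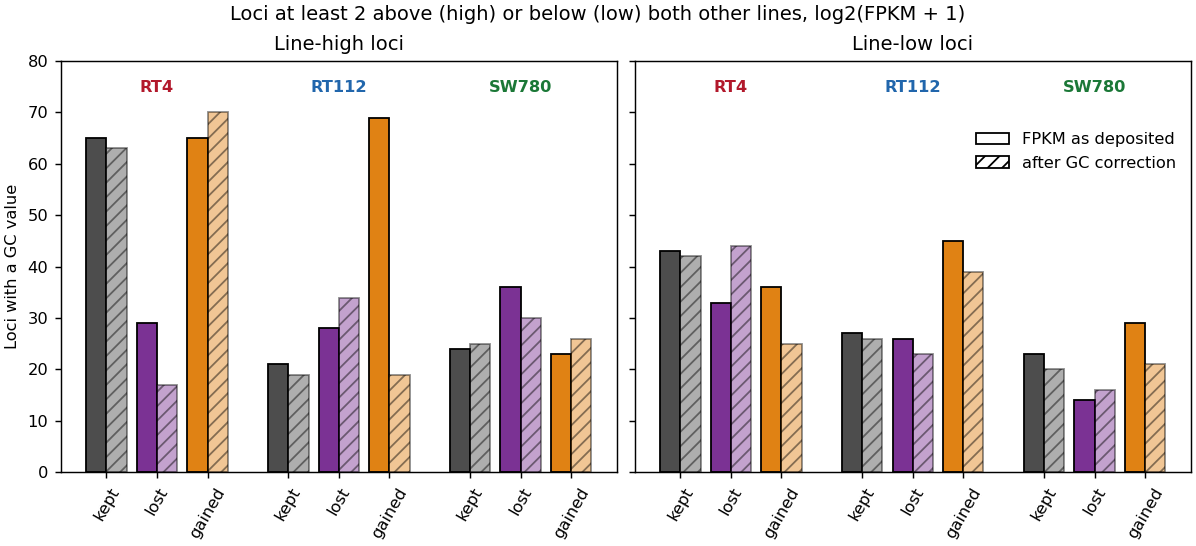
Number of loci kept, lost and gained as line-high (left) or line-low (right) in each line, among the 7985 members with a GC value, for FPKM as deposited (solid) and after GC correction (hatched). The bar of loci gained by RT112 as line-high is 69 as deposited and 19 after correction.

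The RT4-high genes kept with the widest gaps were enzymes, a growth factor binding protein and CD74. CA12, a membrane carbonic anhydrase, was at 68.4, 0.0202 and 0.00551 FPKM in DMSO and at 45.5, 0 and 0.0149 FPKM in quisinostat. FBP1, an enzyme of gluconeogenesis, was at 71.6 and then 27.5 FPKM in RT4 cells and listed at 0 in the other 4 libraries. IGFBP5, which binds insulin-like growth factors, was at 80.8, 0.0995 and 0.141 FPKM and then at 44.1, 0.115 and 0.0554 FPKM. The levels of these 3 genes in RT4 cells were lower in quisinostat and still far above the other lines. CD74, the invariant chain that guides class II molecules, was at 71.4, 0.0553 and 1.02 FPKM and then at 171, 0.0573 and 1.30 FPKM.

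Among the genes RT4 cells gained was SULT2A1, a sulfotransferase of steroids and bile acids, at 8.93, 0 and 4.04 FPKM in DMSO and 125, 0.624 and 2.62 FPKM in quisinostat. BEST1, CFI and LINC01088, with the values given above, were the other 3 named by the rule. CFI and LINC01088 are members only through the RT4 quisinostat library, so their gain follows in part from the filter. The clearest losses of RT4 cells were of several kinds. MYCL, a MYC family transcription factor, fell in RT4 cells from 24.4 to 5.44 FPKM, with 3.18 and 2.79 FPKM before and 4.16 and 1.39 FPKM after in the other lines. ARNT2, a partner of bHLH-PAS transcription factors, was at 8.59, 0 and 0 FPKM and then at 6.84, 3.39 and 0 FPKM, so RT112 cells reached it. MCRIP1 was at 14.1, 1.38 and 0.973 FPKM and then at 0, 6.51 and 0.0914 FPKM. TBC1D17, a Rab GTPase-activating protein, was at 7.76, 0.0228 and 0.471 FPKM and then at 4.63, 5.71 and 0.00846 FPKM. MCRIP1 and TBC1D17 transcripts are GC-rich (62.0% and 62.7%), and values near 0 in 1 library of a line but not in its other library should be read with the limit on failed estimates.

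The RT112-high genes kept with the widest gaps included an imprinted RNA and epidermal genes. H19, an imprinted noncoding RNA, was at 0.0148, 79.97 and 1.60 FPKM in DMSO and at 0.0237, 42.0 and 0.0195 FPKM in quisinostat. CALB1, a calcium-binding protein, was at 0, 60.5 and 0.917 FPKM and then at 0.0194, 32.4 and 1.67 FPKM. TGM5 and CASP14 act in cornification of the epidermis. TGM5, a transglutaminase, was at 9.70 FPKM in RT112 cells in DMSO and at 17.5 FPKM in quisinostat, and at or below 0.155 FPKM in all other libraries. CASP14, a caspase of keratinocytes, fell from 66.8 to 14.4 FPKM in RT112 cells and was at or below 0.602 FPKM elsewhere. MTCO1P40, a pseudogene of a mitochondrial gene whose reads may come from its parent, was at 16.7 and 19.1 FPKM in RT112 cells and under 0.5 FPKM in the other lines.

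What RT112 cells lost was shared out in different ways. MMP1, interstitial collagenase, was at 1.04, 54.3 and 2.84 FPKM and then at 0.828, 19.1 and 9.39 FPKM. AK4, a mitochondrial adenylate kinase, was at 0.418, 18.3 and 0.190 FPKM and then at 4.96, 5.93 and 2.99 FPKM, so the high line fell and both low lines rose. CA9, described above, was lost by its fall in RT112 cells, and BEST1 by its rise in RT4 cells. Matrix metalloproteinase genes MMP10 and MMP12, which lie within 500 kb of MMP1, were also high in RT112 cells in DMSO (5.53 and 10.6 FPKM) and lost, and these 2 were named after their values were seen. MMP10 was at 0.477, 5.53 and 0.0755 FPKM and then at 2.42, 10.6 and 0.941 FPKM, so it rose in RT112 cells and its gap went only from 2.15 to 1.76. MMP12 was at 0.457, 10.6 and 1.504 FPKM and then at 13.0, 13.6 and 5.27 FPKM.

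The genes named among those gained by RT112 cells had higher transcript GC contents (64.5% for HSPB1, 68.2% for C9orf16, 60.1% for PSMB10, 59.4% for TCOF1 and 62.0% for FGFR3) than the median of all members (48.0%). HSPB1, the small heat shock protein HSP27, was at 52.0, 34.2 and 37.6 FPKM and then at 10.9, 164 and 17.7 FPKM. Its range went from 0.59 to 3.78 as deposited and from 0.19 to 2.57 after GC correction, where RT112 cells at 6.67 were just under 2 above SW780 cells at 4.67. C9orf16 was at 5.72, 6.67 and 2.44 FPKM and then at 1.29, 19.2 and 1.45 FPKM, and its range change shrank to 0.39 after correction, with RT112 at 3.40 and RT4 at 1.89. HSPB1 and C9orf16 were thus no longer RT112-high after correction. PSMB10, a subunit of the immunoproteasome, was at 9.87, 1.49 and 7.78 FPKM and then at 0, 7.53 and 0 FPKM. TCOF1, which encodes the nucleolar protein treacle, was at 0.0718, 0.153 and 11.7 FPKM and then at 0.0183, 14.4 and 0.578 FPKM. TCOF1 is 1 of the 4 loci that passed between lines, from SW780 to RT112. FGFR3, the receptor gene that is part of the fusion in each line, lies on chromosome 4 (1793293 to 1808872, plus strand) and also joined this class. It was at 19.96, 17.2 and 2.49 FPKM in DMSO and at 6.12, 32.8 and 0.621 FPKM in quisinostat, so its range went from 2.59 to 4.38, and from 2.43 to 3.496 after GC correction. The corrected level was 4.55 in RT112 and 3.23 in RT4 cells, so FGFR3 was not RT112-high after correction. Its change on the log2 scale was -1.56, 0.90 and -1.11 as deposited and -0.69, 0.24 and -0.83 after correction. In the paper, quantitative PCR did not show FGFR3 mRNA lowered by quisinostat in any line, and showed a rise in SW780 cells. That measurement used primers for the N-terminus of FGFR3, normalized to ACTB, in 4 biological replicates. Each FPKM here is from 1 library, covers the locus and is relative to all mapped fragments, so the 2 measures are unlike. The lower FPKM in RT4 and SW780 cells differs from that result, and the reason was not tested.

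SW780 cells kept and gained cancer-testis genes, which are normally expressed in germ cells and lie mainly on the X chromosome. Such genes were not confined to SW780: 1 locus of the cancer-testis list was RT4-high with either treatment. SPANXB1 was listed at 0 in RT4 and RT112 cells and at 87.9 FPKM in SW780 cells in DMSO, and was at 0, 1.01 and 226 FPKM in quisinostat. XAGE1B was at 7.60 FPKM and then 23.0 FPKM in SW780 cells and listed at 0 in the other 4 libraries. Gained were SPANXA2 (0, 0 and 0.945 FPKM, then 0, 0.0808 and 18.5 FPKM), MAGEB2 (0.504, 0.0496 and 1.05 FPKM, then 0.267, 0 and 11.4 FPKM) and MAGEC2 (0, 0.566 and 1.01 FPKM, then 0, 2.13 and 25.3 FPKM). DUXA, a homeobox gene of the early embryo, was listed at 0 in all DMSO libraries and rose to 12.1 FPKM in SW780 cells alone. SPANXA2, MAGEB2, MAGEC2 and DUXA are members only through the SW780 quisinostat library, so their gain follows in part from the filter. SPANX and XAGE1 genes have near-identical copies, so the values of single members are uncertain. Other genes SW780 kept were KRTCAP3 (22.1 and 15.4 FPKM), ARSD, an arylsulfatase gene (11.9 and 8.99 FPKM), and the noncoding LINC00221 (9.99 and 12.1 FPKM), all at or below 0.124 FPKM in the other lines.

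SW780 cells lost line-high genes more often through the other lines than through their own fall. ABCG2, a drug efflux transporter, was at 1.63, 1.35 and 29.2 FPKM and then at 13.4, 0.751 and 7.85 FPKM. EFEMP1, the matrix protein fibulin-3, was at 1.19, 0.306 and 19.3 FPKM and then at 17.2, 1.22 and 21.9 FPKM, so RT4 cells reached the level of SW780. RARRES3, a phospholipase induced by retinoids, was at 3.26, 8.09 and 82.0 FPKM and then at 4.93, 9.97 and 13.8 FPKM. Over all 38 lost loci, the nearest other line moved more at 26 and SW780 itself at 12.

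**Figure D4:**
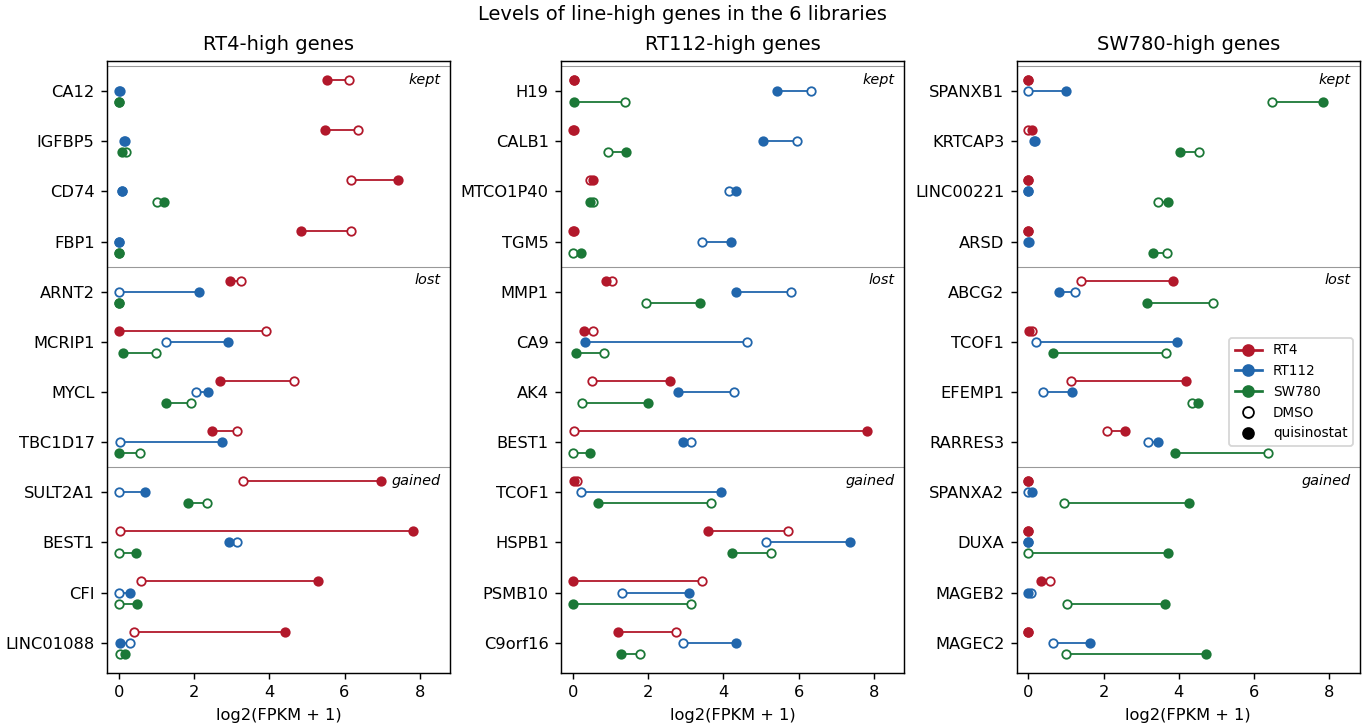
log2(FPKM + 1) of up to 4 line-high genes kept, lost and gained for each line, with open circles for DMSO, filled circles for quisinostat and 1 colour per line. Kept genes stay apart from the other lines, as CA12 does at 68.4 and 45.5 FPKM in RT4 cells. Gained genes start at different levels: CFI near 0 in all 3 lines, and HSPB1 at 52.0, 34.2 and 37.6 FPKM.

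Line-low loci, at least 2 below both other lines, numbered 187 in DMSO and 232 in quisinostat. Of these, 105 (1.24% of members) were kept, 82 (0.966%) were lost and 127 (1.5%) were gained. RT4 kept 52, lost 40 and gained 47, RT112 kept 28, lost 27 and gained 47, and SW780 kept 25, lost 15 and gained 33. Among loci with a GC value, 73 were lost and 110 gained as deposited, and 83 lost and 85 gained after the GC correction. In RT4 cells the order turned, from 33 lost and 36 gained to 44 lost and 25 gained. At 92 of the 127 loci gained as deposited the nearest other line moved more, and at 74 it rose by at least 1. A line near 0 FPKM has little room to fall, so these counts are set in part by the floor. The same share over all members is not given here.

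GSTP1, a glutathione transferase that is often silenced by promoter methylation in cancer, was the widest line-low gene kept by RT4 cells. It was listed at 0 in RT4 cells with both treatments and stood at 263 and 291 FPKM in RT112 and SW780 cells in DMSO and at 416 and 257 FPKM in quisinostat. CAV1, the main protein of caveolae, was at 0.263, 59.0 and 178 FPKM and then at 4.88, 199 and 167 FPKM. KRT13, a keratin of stratified epithelia and the intermediate urothelium, was at 3.26, 431 and 200.5 FPKM and then at 0.296, 789 and 34.9 FPKM, so its range went from 6.66 to 9.25, the widest of the genes named here in quisinostat. RT4 cells gained a low level of CTGF, a matrix growth factor also called CCN2, by rises in the other lines, from 0.308 and 1.32 FPKM to 11.6 and 10.0 FPKM, while RT4 cells were at 0 and 0.0712 FPKM. CAMKK2, a calcium-dependent kinase kinase, was at 9.36, 7.98 and 8.71 FPKM and then at 0.194, 8.16 and 6.29 FPKM. PDLIM7, a cytoskeletal adaptor, was at 3.23, 0 and 4.59 FPKM and then at 0.202, 10.45 and 9.31 FPKM.

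RT112 cells kept low levels of LPXN (0.156 and 0.362 FPKM), LXN (0.375 and 0.0345 FPKM) and RAB34 (0.0358 and 0.0695 FPKM), which were between 13.6 and 93.7 FPKM in the other 4 libraries. They gained low levels of CPE, a prohormone-processing carboxypeptidase, at 1.148, 0.299 and 2.46 FPKM and then 33.4, 0.791 and 14.3 FPKM, and of the cytokine gene IL1B, at 7.74, 3.49 and 6.08 FPKM and then 22.8, 1.12 and 16.2 FPKM. EFEMP1 belonged here too, with the values given above. Lost as RT112-low were HMOX1, heme oxygenase 1, at 39.0, 2.27 and 31.2 FPKM and then 84.0, 3.45 and 5.57 FPKM, and UPK1A, a uroplakin, at 12.8, 1.27 and 19.2 FPKM and then 0.178, 5.89 and 0.613 FPKM. SW780 cells came down towards the level of RT112 for HMOX1 and below it for UPK1A. USP8, a deubiquitinase, was at 7.39, 0.255 and 7.39 FPKM and then at 10.0, 0.0943 and 0.247 FPKM.

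SW780 cells gained low levels of IGFBP3, at 73.5, 142 and 57.3 FPKM and then 163, 230.02 and 16.9 FPKM, of GPC3, a cell-surface proteoglycan, at 1.47, 0.760 and 0.0577 FPKM and then 22.3, 8.78 and 0.243 FPKM, and of ZG16B, at 3.82, 8.02 and 3.26 FPKM and then 8.79, 11.8 and 0.477 FPKM. They lost low levels of the transcription factor gene MAFF (12.8, 15.4 and 1.86 FPKM, then 1.87, 6.71 and 0.983 FPKM), of TSPAN12 (11.1, 34.3 and 1.71 FPKM, then 12.5, 8.68 and 4.198 FPKM) and of the imprinted gene PEG10 (37.1, 36.6 and 8.12 FPKM, then 67.3, 29.4 and 18.5 FPKM). The 3 kept SW780-low genes named by the rule, DSTN, OSTF1 and GNAI2, were all listed at 0 in SW780 cells in DMSO, where the other lines had between 20.2 and 67.1 FPKM.

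GNAI2, a G protein subunit, belonged to a run of adjacent loci. With members ordered by GENCODE 29 position, 9 neighbouring loci on chromosome 3 between 49940007 and 50649297 (GRCh38) were all under 0.1 FPKM in both SW780 libraries. They were RBM6/RBM5, SEMA3F, GNAI2, IFRD2, HYAL2/TUSC2, RASSF1, NPRL2, TMEM115 and MAPKAPK3. Of these 9, 7 were listed at 0 in both SW780 libraries, and in the other lines they were between 1.67 and 43.3 FPKM. The member before the run, MST1R, a receptor tyrosine kinase gene, was at 0.383 and 0.386 FPKM in SW780 cells, and the member before that, TRAIP, was at 5.34 and 4.07 FPKM. After the run, MANF was at 17.9 and 40.5 FPKM. Another run of at least 3 members was found, with 4 cancer-testis loci on the X chromosome listed at 0 in both RT4 libraries (SPANXC, SPANXA1, SPANXA2 and MAGEC2). The 3 SPANX loci were also at 0 in RT112 cells in DMSO and at 0.0664, 0.111 and 0.0808 FPKM in quisinostat, and these loci are members through their levels in SW780 cells. Runs were looked for after line-low genes had been seen to be neighbours.

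**Figure D5:**
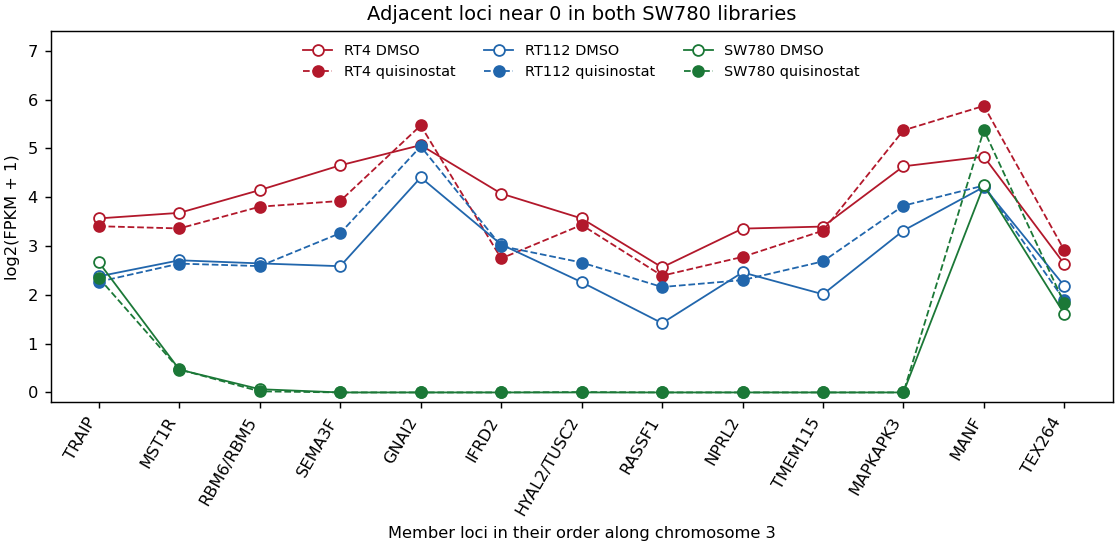
log2(FPKM + 1) of the 9 adjacent member loci on chromosome 3 and 2 members on each side, in their order along the chromosome, with 1 colour per line, open circles for DMSO and filled circles for quisinostat. Both SW780 lines lie at or near 0 from RBM6/RBM5 to MAPKAPK3, while MANF stands at 17.9 and 40.5 FPKM.

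Loci that were silent in 1 line only were also followed. A locus was called silent in a line when it was under 0.1 FPKM there and at least 2 FPKM in both others. In DMSO, 46 loci were silent in RT4 cells, 37 in RT112 cells and 23 in SW780 cells. In quisinostat, 13 of the 46, 13 of the 37 and 1 of the 23 reached at least 1 FPKM, while 23, 19 and 18 stayed under 0.1 FPKM. The opposite also occurred: of 38, 29 and 31 loci silent in quisinostat, 6, 1 and 6 had been at 1 FPKM or more in DMSO. Among loci with a gene name, those that reached the highest levels in RT4 cells were SPP1, DNM1L, C8orf4 (0.0467 to 5.82 FPKM) and SNX25 (0 to 5.27 FPKM). In RT112 cells they were PDLIM7, CALD1, the actin-binding protein caldesmon (0.0390 to 8.21 FPKM), WDR18 (0 to 7.02 FPKM) and ZFYVE27 (0 to 5.61 FPKM). WDR18 then stood at 0 in RT4 cells, where it had been at 4.63 FPKM in DMSO, and the same limit on values near 0 applies.

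Promoters of line-high loci, pooled over the lines, had a lower median number of CpG dinucleotides, the sites of DNA methylation, than those of members in general. In the 300 bases around the start (250 before and 50 after, RefSeq, GRCh38.p14), 5966 members with a single name and a promoter entry had a median of 27 CpG. Line-high loci kept had 17 (71 matched), lost 13.5 (60 matched) and gained 20 (113 matched), and fewer than 5 CpG were found in 9, 18 and 20 of them, against 271 of the 5966 (4.54%). The loci gained by RT4 had a median of 9 CpG and those gained by RT112 a median of 32, above that of all members, which lies beside the difference in transcript GC content of these classes. Line-low loci had medians of 24 (kept), 27 (lost) and 24 (gained), and those kept and gained by SW780 had 30 and 31.5. Loci silent in DMSO that reached 1 FPKM had a median of 30 CpG (17 matched) and those that stayed silent 22 (44 matched), with 6 to 35 and 1 to 50 CpG respectively. Promoters of 4 named genes set a CpG-dense start beside CpG-poor ones, with each CpG in capitals. GSTP1 was kept low in RT4 (36 CpG, chr11:67583562-67583861, plus strand). SPP1 was lost as RT4-low (6 CpG, chr4:87975464-87975763, plus strand). ALDH1A1 rose most in RT4 (7 CpG, chr9:72953004-72953303, minus strand). CA9 was lost as RT112-high (7 CpG, chr9:35673678-35673977, plus strand). XAGE1B and SPANXB1, both kept high in SW780, had 17 and 9 CpG. SPP1 had the lowest count among the silent loci that reached 1 FPKM. GSTP1 and SPP1 thus differ in the opposite direction to the medians of 22 and 30, and do not stand for the silent loci.
GSTP1: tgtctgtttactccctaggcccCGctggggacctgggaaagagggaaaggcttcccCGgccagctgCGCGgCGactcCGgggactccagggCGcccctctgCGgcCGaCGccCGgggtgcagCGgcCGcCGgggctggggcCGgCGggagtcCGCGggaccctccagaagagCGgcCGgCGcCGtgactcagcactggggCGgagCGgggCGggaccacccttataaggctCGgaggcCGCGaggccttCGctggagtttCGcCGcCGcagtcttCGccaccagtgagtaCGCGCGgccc
SPP1: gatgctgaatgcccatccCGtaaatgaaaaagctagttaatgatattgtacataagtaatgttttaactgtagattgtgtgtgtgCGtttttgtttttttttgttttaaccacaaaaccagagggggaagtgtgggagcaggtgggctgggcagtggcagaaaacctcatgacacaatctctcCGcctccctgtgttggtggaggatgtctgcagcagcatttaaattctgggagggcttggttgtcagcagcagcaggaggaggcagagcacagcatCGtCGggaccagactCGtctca
ALDH1A1: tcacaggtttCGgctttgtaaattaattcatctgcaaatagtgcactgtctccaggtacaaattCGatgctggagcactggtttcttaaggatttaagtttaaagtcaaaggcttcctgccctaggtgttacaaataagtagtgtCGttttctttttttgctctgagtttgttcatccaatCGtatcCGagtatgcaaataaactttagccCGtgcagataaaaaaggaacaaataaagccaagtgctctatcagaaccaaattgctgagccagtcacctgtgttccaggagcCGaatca
CA9: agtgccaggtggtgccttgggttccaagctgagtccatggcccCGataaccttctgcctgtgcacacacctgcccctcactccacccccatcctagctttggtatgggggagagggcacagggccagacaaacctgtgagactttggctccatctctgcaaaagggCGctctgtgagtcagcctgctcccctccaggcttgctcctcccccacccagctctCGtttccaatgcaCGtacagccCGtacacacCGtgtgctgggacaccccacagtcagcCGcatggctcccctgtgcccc

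Gene lists of pathways and cell functions showed where widening and narrowing fell, beside 7.42% of all members wider and 4.66% narrower by at least 1. Antigen presentation genes drew apart. Of 19 loci, 9 widened and 1 narrowed by at least 1, the median range went from 1.01 to 2.70, and 10 widened after the GC correction. RT4-high loci of this list numbered 1 in DMSO and 4 in quisinostat. HLA-DPB1, a class II chain, was at 0.0818, 0 and 0 FPKM and then at 15.1, 0.277 and 4.96 FPKM. It is a member only through its quisinostat libraries, so the count of widened loci follows in part from the filter on the mean. PSMB9, an immunoproteasome subunit, narrowed, at 7.47, 3.91 and 23.9 FPKM and then 22.3, 13.3 and 17.9 FPKM. HLA genes are similar in sequence and polymorphic, so the values of single members are uncertain. Of 9 cancer-testis loci, 5 widened and none narrowed by at least 1, and 4 in DMSO and 6 in quisinostat were SW780-high. Another 1 was RT4-high with either treatment. Of the 16 listed genes in the table, several are members through their SW780 libraries alone, such as XAGE1A and MAGEB2, so these counts follow in part from the filter on the mean.

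Of 12 keratin loci, 4 widened by at least 1 and none narrowed, also after the GC correction. The median range went from 1.48 to 1.63 as deposited and from 1.61 to 1.54 after correction, so its direction turned, and RT112-high keratin loci numbered 1 in DMSO and 4 in quisinostat. KRT16, a keratin of stressed epidermis, was at 0.907, 2.1998 and 1.46 FPKM and then at 0.0410, 8.61 and 1.12 FPKM, and after correction it was no longer RT112-high (2.81 against 1.41 in SW780 cells). The range of KRT13, given above, widened more by the fall of 1.72 in RT4 cells than by the rise of 0.87 in RT112 cells. Among 10 squamous and cornified envelope loci, 3 widened and 1 narrowed. IVL, involucrin, was at 19.7, 38.6 and 22.8 FPKM and then at 3.64, 53.7 and 14.3 FPKM. MAL, a proteolipid of apical transport, was high in RT4 cells and fell there from 43.2 to 7.58 FPKM. Among 19 urothelial differentiation loci, 3 widened and 3 narrowed, and 4 were line-low in DMSO and no longer in quisinostat. UPK2, a uroplakin, was at 51.6, 5.55 and 36.2 FPKM and then at 6.80, 8.30 and 6.44 FPKM, so RT4 and SW780 cells came down to RT112. GRHL3, a transcription factor of umbrella cells, was at 26.4, 1.35 and 12.03 FPKM and then at 9.96, 1.20 and 2.96 FPKM. KRT20, a keratin of the same cells, moved the other way, at 3.21, 1.11 and 0.356 FPKM and then 62.7, 0.336 and 2.80 FPKM.

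Interferon-stimulated genes drew closer. Of 32 loci, 8 narrowed and 3 widened by at least 1, the median range went from 1.149 to 1.002, and after the GC correction 6 narrowed and 3 widened. TRIM22, an antiviral ubiquitin ligase, was at 1.92, 0.305 and 10.7 FPKM and then at 2.30, 1.67 and 1.72 FPKM. SAMD9L was at 0.1504, 2.61 and 9.15 FPKM and then at 1.52, 1.89 and 3.85 FPKM. OAS3, an antiviral enzyme, widened, at 36.6, 41.0 and 31.2 FPKM and then 45.1, 29.7 and 15.7 FPKM. Cytosolic ribosomal proteins also drew closer in their median range, from 0.91 to 0.71, with 5 of 79 loci narrower and 1 wider by at least 1. After the GC correction 1 narrowed and none widened. RPL28 was at 102, 19.8 and 25.6 FPKM and then at 19.6, 28.9 and 16.0 FPKM.

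Detoxification and NRF2 genes went both ways, with 7 of 45 loci narrower and 5 wider, and 6 of each after the GC correction. AKR1C1, an aldo-keto reductase whose near-identical family members can share reads, was at 7.60, 39.4 and 118 FPKM and then at 26.5, 20.3 and 40.0 FPKM. CYP4B1, a cytochrome P450, widened by its fall in SW780 cells, at 161, 7.84 and 11.8 FPKM and then 112, 7.21 and 0.353 FPKM. SW780-high loci of this list went from 5 to 2 and RT4-high loci from 1 to 4. Among 28 mesenchymal and matrix loci, 6 widened and 4 narrowed, and RT112-high loci went from 4 to 0. TGFBI, a matrix protein of this list that was not RT112-high, narrowed, at 1.29, 27.0 and 24.3 FPKM and then 11.7, 33.4 and 55.4 FPKM. Of 28 chemokine and cytokine loci, 7 widened and 4 narrowed. EREG, which encodes the EGFR ligand epiregulin, was at 0.0170, 0 and 4.38 FPKM and then at 0.994, 0 and 25.4 FPKM.

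Of 19 neuronal-type loci, 6 widened and 1 narrowed. MAP1B, a microtubule-associated protein, was at or below 0.0273 FPKM in DMSO and at 12.6, 0.119 and 4.01 FPKM in quisinostat. STMN3, a stathmin, reached 14.3 FPKM in RT112 and 2.45 FPKM in SW780 cells and was listed at 0 in RT4 cells. MAP1B and STMN3 are members only through their quisinostat libraries, so the count of widened neuronal-type loci follows in part from the filter. CLU, clusterin, narrowed by its rise in RT112 cells, at 65.2, 3.05 and 84.3 FPKM and then 69.3, 18.8 and 67.3 FPKM. Of 28 junction loci, 3 widened and 4 narrowed, and of 23 mucin and surface antigen loci, 3 widened and 2 narrowed. After the GC correction these counts were 2 and 1 for junction loci and 4 and 6 for mucin and surface antigen loci, so both turned. DSG2, a desmosomal cadherin, came to 61.4, 64.2 and 59.7 FPKM from 17.3, 49.2 and 37.6 FPKM. ALCAM, an adhesion molecule, came to 36.8, 35.6 and 31.1 FPKM from 3.22, 36.4 and 10.4 FPKM. Of 38 growth factor receptor loci, 3 widened and 1 narrowed. EGFR was at 18.4, 18.4 and 20.8 FPKM and then at 16.3, 23.8 and 47.8 FPKM, and EFNB2, an ephrin ligand, at 2.69, 14.4 and 3.02 FPKM and then 14.3, 24.7 and 14.0 FPKM.

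Genes of mitosis and replication differed little between lines with either treatment. Their median range was 0.64 in DMSO and 0.61 in quisinostat, and 2 of 51 loci widened and none narrowed by at least 1. After the GC correction the median range was 0.60 in DMSO and 0.66 in quisinostat, so its direction turned, with the same counts. MCM5, a subunit of the replicative helicase, was at 19.1, 18.4 and 12.6 FPKM and then at 3.496, 23.5 and 4.85 FPKM. MCM2, another subunit, was at 44.3, 44.1 and 32.3 FPKM and then at 17.9, 57.3 and 18.0 FPKM, and its range widened by only 0.65 after correction. Of 7 HOX loci, 1 widened and 1 narrowed, and of 2 metallothionein loci, 1 widened. MT1X, which binds zinc and copper, was at 2.01, 5.57 and 4.61 FPKM and then at 3.38, 45.8 and 20.2 FPKM. The only locus measured of the 9p21 list, KLHL9, was at 5.34, 7.02 and 0.00179 FPKM and then at 6.42, 7.999 and 0.0238 FPKM, so it was low in SW780 cells with either treatment.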

How the data were processed

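RNA of 3 cell lines with DMSO or quisinostat was measured in 6 libraries, 1 for each line and treatment, grouped by their labels. The deposited values are FPKM per assembled locus, which the authors made from poly-A selected, stranded libraries (Illumina NovaSeq). The submitters' processing notes name Trimmomatic 0.36, HISAT2 2.2.1, StringTie 2.2.1 and build GRCh38, and the paper's methods name Ballgown. FPKM is already divided by transcript length and by mapped fragments, and no correction for GC content is stated. The criterion for the rows is not given in the sources used here. Depth is unknown, so intervals are given only for a share of loci.

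Rows with the same locus identifier hold the same values and were used once. Levels were put on the log2(FPKM + 1) scale, which understates differences of low genes. Loci with a mean under 2 FPKM were left out. A locus was line-high or line-low when at least 2 above or below both other lines, and clearly lost or gained when its other gap was under 1. Classification was run on simulated loci whose gaps lay well beyond the limit, which checks the code and not calls near the limit. The GC content of a locus was that of its gene's longest coding transcript, or its longest transcript where none is coding, in GENCODE 29, and 7985 of the 8485 members (94.1%) had a value. For the correction, a lowess curve (span 0.3) of each library's deviation from the mean of the 6 libraries on GC content was subtracted. Promoters were those of RefSeq (GRCh38.p14).

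The members, the 20 gene lists and the rules were chosen with earlier results of these data known. Named genes were those with 1 gene name (clone names and some sex-linked genes left out) and the largest narrowing (8) or widening (8), for each line the first 5 line-high genes kept, 4 lost and 4 gained, the first 3 line-low genes in each class, up to 4 silent genes reached, and in each list up to 2 that narrowed and 2 that widened by at least 1. FTH1, LUM, MMP10, MMP12, KLHL9 and the genes of the run on chromosome 3 fall outside that rule and were named after their values were seen. Some genes that the rule selects are not reported here. Alternatives were other pseudocounts, filters, scalings, gap limits, the standard deviation, single-name loci, the GC correction and leaving out a line. Python 3.11.15 with pandas, NumPy, SciPy and statsmodels was used.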

Additional observations from a re-analysis of the deposited data

Results flagged for a closer look

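Some named genes moved by at least 1.5 on the log2(FPKM + 1) scale in opposite directions in 2 lines. With 1 library per line and treatment, the difference between the lines was not tested, and it cannot be told apart from dose. UPK1A changed by 1.60 in RT112 and by -3.65 in SW780 cells. ABCG2 changed by 2.45 in RT4 and by -1.77 in SW780 cells, and AKR1C1 by 1.68 in RT4 and by -1.54 in SW780 cells. TCOF1 changed by 3.74 in RT112 and by -3.01 in SW780 cells. Between RT112 and RT4 cells, MCRIP1 changed by 1.66 and -3.92, HSPB1 by 2.23 and -2.15, PSMB10 by 1.78 and -3.44, PDLIM7 by 3.52 and -1.82 and WDR18 by 3.004 and -2.49. The changes of TCOF1, MCRIP1, PSMB10, PDLIM7 and WDR18 rest in part on levels at or near 0 FPKM. Such levels can be failed estimates.

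The GC correction made many of these differences smaller. HSPB1 then changed by 1.41 and -1.08, WDR18 by 2.10 and -1.32, PDLIM7 by 2.70 and -0.74 and MCRIP1 by 1.00 and -3.05 in RT112 and RT4 cells. ABCG2 kept 2.08 in RT4 and -1.88 in SW780 cells, and UPK1A 1.33 in RT112 and -3.53 in SW780 cells. TCOF1 changed by 3.28 in RT112 and by -2.82 in SW780 cells. PSMB10 changed by 1.26 in RT112 and by -2.74 in RT4 cells, and AKR1C1 by 1.34 in RT4 and by -1.64 in SW780 cells.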

How the results depend on the processing

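More line-high loci were gained than lost under each alternative that recounted them, and more loci widened than narrowed by at least 1 under each but 1. Without RT112, the range narrowed at 53.7% of loci, and 412 loci narrowed and 402 widened by at least 1, with 241 line-high loci kept, 182 lost and 214 gained. The share of narrower loci was 41.3% without RT4, with 253 narrower by at least 1, and 47.4% without SW780, with 256 line-high loci kept, 198 lost and 377 gained. With 2 lines left, a line-high locus has to exceed only 1 other. The share was 42.0% after quantile normalization, 43.2% with no filter (1034 loci wider, 301 gained) and 46.2% with a pseudocount of 0.1 (664 narrower, 177 lost). A pseudocount of 5 gave 139 narrower, 274 wider, 32 kept, 36 lost and 66 gained. Fewer loci passed a mean of at least 5 FPKM, which gave 375 wider, 79 kept, 60 lost and 88 gained. The GC correction gave 414 wider, against 584 for the same loci without it (7985 loci, with the uncorrected count added after the data were seen). A gap of 1 in place of 2 gave 400 kept, 640 lost and 894 gained, and a gap of 3 gave 45, 50 and 65. Over loci above 0 in all 6 libraries, an alternative also added after the data were seen, 57 were kept. The cause of these shifts was not tested where the alternative does not itself change the loci or lines counted. The other values stayed within 1.5 times the count, or within the interval of the share. Rescaling to a common sum or median, single-name loci, a mean of at least 1 FPKM and the standard deviation moved none of the results beyond these limits. Each line gives 1 pair of libraries, DMSO and quisinostat, with a dose that differs between lines. The labels give no replicate numbers, and no test was made, paired or not. Changes with treatment were taken within each line. Depth is unknown and sets no limit that could be computed here.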
